A study of Homo sapiens with 37 samples.

Results

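The MYC-MAX network was followed here through 10 genes: MYC, its dimerisation partner MAX, the MAX-binding repressors MXD1, MXD3, MXD4, MXI1, MNT and MGA, and the parallel partners MLX and MLXIP, which encodes MondoA. They were chosen by name, through the Ensembl identifiers of the deposited table. The rule used none of their values, though earlier results of these data were known when it was set. All 10 were found among the 32055 genes of that table, and all 10 had enough counts to be tested among 10661 genes.

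The libraries came from K562, an established chronic myeloid leukaemia line with erythroid features. 26 libraries were labelled ZBTB7A KO and 11 were labelled control. ZBTB7A encodes a zinc finger transcription factor, and the study compared transcriptomes of knockout and control clones to examine its role in metabolism. Knockout lines were made with a Cas9 plasmid carrying a ZBTB7A guide and were grown from single cells, controls received an empty vector, and bulk RNA of each sample was read from its 3′ ends with molecular identifiers (SCRB-seq). The labels give neither clone nor guide nor batch, and no treatment or time separates the groups, which share the K562 background.

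MYC binds DNA only as a dimer with MAX, and this dimer recognises the E-box CACGTG and activates genes of ribosome production, nucleotide synthesis and growth. The MXD proteins, MNT and MGA compete for MAX at the same motif and bring repressive complexes, mainly SIN3 with histone deacetylases for MXD and MNT. MLX is a second partner, which pairs with MondoA to switch on glucose-sensitive genes such as TXNIP and which can also pair with some MXD proteins and MNT. MYC is known for driving proliferation in leukaemia cells, and its fall often accompanies differentiation of erythroid cells.

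Depth and library structure bear on every value below. Totals ran from 1070250 to 4270901 UMIs in the KO libraries (median 2030965) and from 563235 to 4710809 in the controls (median 3518944). Clustering on 500 variable genes outside all gene lists used here split the libraries into tight sets, 6 among the KO libraries (A to F, with 6, 6, 5, 4, 4 and 1 libraries) and 2 among the controls (A with 6 and B with 5). These sets come from the data and are not groups of the study, and nothing in the labels says whether a set is 1 clone. The p-values therefore treat 37 libraries as separate samples and measure the spread between libraries, which may be partly technical. ZBTB7A itself was at 5.82 ± 0.29 log2 CPM in the controls and 5.95 ± 0.26 in the KO libraries (SD, n = 11 and 26, adjusted p = 0.331 by edgeR). A 3′ count does not show whether a coding sequence was cut. The study checked the ZBTB7A status of its clones with Western blots and Sanger sequencing. Erythroid markers were present in every library, with a summed level of 3878 to 8949 CPM in the controls and 3072 to 9904 in the KO libraries. 7 of the 14 erythroid markers tested passed at an adjusted p below 0.05 (edgeR), 5 of them higher in KO, where 33.8% of all 10661 genes passed and 17.7% were higher. Markers of other lineages were low or at 0 for most genes, with summed levels of 0.767 to 8.24 (control) and 2.69 to 60.3 CPM (KO) for megakaryocytes, 2.30 to 7.07 and 2.52 to 13.98 CPM for monocytes and granulocytes, and 25.2 to 88.6 and 9.07 to 163.5 CPM for lymphoid cells. Of these, GP1BA, ITGAM and PTPRC were higher in KO and CD3D lower, while defining markers such as PF4, CD14, CD2 and CD3E were near 0, and the part of any such cells in the results was not tested. In bulk libraries, fewer cells of a type and less RNA per cell cannot be told apart.

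MYC fell in the KO libraries, to 0.706 of the control level, and MAX also fell. MLXIP, MXD3 and MXI1 rose, by 1.26, 1.29 and 1.17 times. MXD1, MXD4, MNT, MGA and MLX did not pass the test. At an adjusted p below 0.05, 5 of the 10 members passed, 3 higher and 2 lower, against 33.8% of all genes tested, of which 17.7% were higher and 16.2% lower. With a log2 fold change beyond 0.5 as well, only MYC passed of the 10, against 10.2% of all genes (6.65% higher and 3.53% lower). At these background shares the count is no result about the network as a whole, and the median log2 fold change was 0.04 over the members and −0.0046 over all genes tested. In no member were the groups fully separated, as they were for 0.281% of genes.

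MYC was the most abundant member on average. A 3′ UMI is counted once per captured transcript, so counts compare between genes without a length correction. Exons of other genes overlap the 3′ ends of some members, among them MXD3 and MLX, and the effect on their levels was not tested. Mean levels over all 37 libraries were 529.7 CPM for MYC, 176.5 for MLXIP, 55.8 for MAX, 51.0 for MGA, 38.5 for MXI1, 28.9 for MLX, 20.8 for MXD1, 20.4 for MXD4, 19.03 for MNT and 13.4 for MXD3. The ranges of MYC (282.0 to 845.6 CPM) and MLXIP (124.8 to 263.2) did not overlap, nor did those of MLXIP and MAX (41.5 to 77.5). From MAX downwards each neighbour overlapped the next, and MXD1, MXD4 and MNT lay within 2 CPM of each other.

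MYC, the activating subunit, is encoded on chromosome 8. Its control libraries lay between 8.99 and 9.73 log2 CPM with a median of 9.28. Its KO libraries lay between 8.14 and 9.59 with a median of 8.78. The groups overlapped, but 18 of 26 KO libraries were below the lowest control and none was above the highest. Means were 9.37 ± 0.21 in the controls and 8.83 ± 0.41 in KO (SD, n = 11 and 26), and MYC was covered by at least 341 UMIs in every library. The log2 fold change was −0.50 ± 0.12 (SE), a fall of 29.4%, with adjusted p = 0.00188 in edgeR's quasi-likelihood test. Two-sided permutation of the library labels gave p = 0.00023, or 0.0023 after Benjamini-Hochberg adjustment over the 10 members. MYC sits so close to the fold threshold that it moved below it under library-size scaling or surrogate variables. The same happened in many of the fits that left out 1 library. In 26 of all alternative fits, neither MYC nor any other member passed both thresholds. The adjusted p of MYC stayed below 0.05 in all 12 planned settings and in all 37 fits that left out 1 library.

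The fall was uneven across the KO sets. MYC was lowest in KO set A (mean 8.28 ± 0.12, SD, n = 6), followed by E (8.69 ± 0.08, n = 4), C (8.85 ± 0.19, n = 5), D (8.87 ± 0.07, n = 4) and F (9.10, 1 library). KO set B, at 9.38 ± 0.15 (n = 6), lay between control set A (9.42 ± 0.21, n = 6) and control set B (9.31 ± 0.22, n = 5). Thus 5 of 6 KO sets were below both control sets, and 91.4% of the variance of MYC among KO libraries lay between sets. Without KO set A the log2 fold change was −0.36 (adjusted p = 0.00579), and without KO set B it was −0.69 (8.25e-07). Without control set A it was −0.44 with adjusted p = 0.0852. When the libraries of a set were summed into 1 sample each, giving 6 KO against 2 control samples, MYC was −0.48 with p = 0.0682 and adjusted p = 0.539. No gene passed that edgeR comparison, with 1483 of 15337 at an unadjusted p below 0.05, while limma-voom passed 2 genes and put MYC at adjusted p = 0.357.

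**Figure D1:**
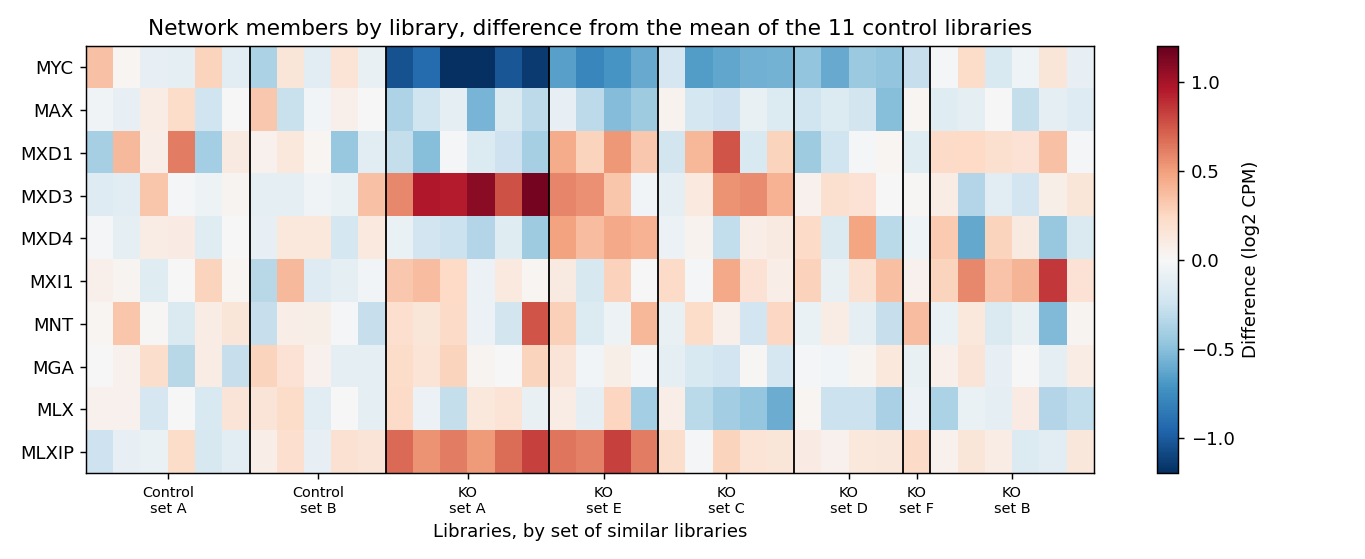
Difference of each network member (rows) from the mean of the 11 control libraries in log2 CPM, in every library (columns), grouped by the sets of similar libraries; red is higher, blue lower, and colours end at 1.2. MYC is darkest blue in KO set A and near the control level in KO set B, while MLXIP is red in sets A and E and MXD3 in set A.

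MAX, the shared partner without which MYC does not bind (chr14:65006174-65102695, minus strand, GRCh38), fell by less. Control libraries ran from 5.70 to 6.29 log2 CPM with a median of 5.96, and KO libraries from 5.403 to 6.003 with a median of 5.77. 8 KO libraries were below the lowest control and 23 were below the control median. The log2 fold change was −0.21 ± 0.06 (SE; edgeR, adjusted p = 0.00468), and the permutation p was 0.00062 (0.0031 adjusted over the members). 5 of 6 KO set means lay below both control sets, the exception being the single library of set F. Without control set B the adjusted p was 0.0722, and on set sums it was 0.580. MYC outnumbered MAX in every library, with 6.55 to 15.3 MYC UMIs per MAX UMI in the controls (median 10.1) and 4.93 to 13.5 in KO (median 8.53).

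MXD3, a repressor of the MXD family that is made in cycling cells, was the least abundant member. Its control libraries ran from 3.39 to 3.90 log2 CPM (median 3.48) and its KO libraries from 3.197 to 4.69 (median 3.73). 11 KO libraries were above the highest control and 2 below the lowest. The log2 fold change was 0.36 ± 0.14 (SE; edgeR, adjusted p = 0.0363), and the permutation p was 0.0188 (0.0376 adjusted over the members). KO set A stood highest (4.46 ± 0.21, SD, n = 6), set B was at 3.48 ± 0.20 (n = 6) and both control sets were at 3.55. The call was lost in 4 of the 11 planned settings that tested MXD3, namely limma-voom (adjusted p = 0.0774), its quality weights (0.0634), no filter on low counts (0.0711) and surrogate variables (0.0919). Without KO set A the log2 fold change was 0.16 and the adjusted p 0.243, and the call was also lost without either control set (0.220 and 0.127) and on set sums (0.672). A library held between 6 and 64 UMIs of MXD3, so single libraries are imprecise. The last 500 exonic bases of MXD3 (chr5:177301461-177312757, minus strand, GRCh38) lie wholly in exons of RAB24 on the same strand, so reads of both genes may be shared. RAB24 had a log2 fold change of 0.13 (edgeR, adjusted p = 0.295), and its part in the MXD3 counts was not tested.

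MXI1 (also known as MXD2, chr10:110207605-110287365, plus strand, GRCh38), another MAX-binding repressor, also rose, and sets held 35.9% of its variance among KO libraries. Control libraries ran from 4.80 to 5.52 log2 CPM (median 5.13) and KO libraries from 4.93 to 5.98 (median 5.34). Only 4 KO libraries exceeded the highest control, but 21 exceeded the control median, and all 6 KO set means were above both control sets, from 5.17 in set E to 5.56 in set B. The set E mean exceeded that of control set A (5.17) by less than the spread within either set. Set F, 1 library at 5.18, exceeded it by less than the spread within control set A. The log2 fold change was 0.22 ± 0.08 (SE; edgeR, adjusted p = 0.0302), with a permutation p of 0.0101 (0.0253 adjusted over the members). The call was lost without control set A (adjusted p = 0.0917), control set B (0.190) or KO set B (0.104), and on set sums (0.636). It was also lost without a filter on low counts (0.0884) and with AT-rich barcodes only (0.386). With barcode class as a covariate the adjusted p was 0.122, and with every library thinned to the smallest total the log2 fold change was 0.03 (0.899). Barcode bases were unevenly shared between groups, with 12 of 26 KO libraries but 1 of 11 controls carrying GC-rich barcodes (at least 4 of 6 bases), and their part in the MXI1 difference was not tested beyond these fits.

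The remaining repressors gave no difference past the threshold. MXD1 was at 4.36 ± 0.33 log2 CPM in the controls and 4.41 ± 0.32 in KO (SD, n = 11 and 26), a log2 fold change of 0.08 ± 0.11 (SE). MXD4, linked to withdrawal from the cell cycle, had a log2 fold change of 0.03 ± 0.10, yet 8 KO libraries lay above the highest control and 8 below the lowest. The MXD4 KO libraries spread more (SD 0.32) than the controls (SD 0.12), and set E stood at 4.82 against 4.14 in set A. MXD1 was also highest in set E (4.75) and lowest in set A (4.09), with the other sets in a different order. MNT, the repressor found in most cell types, gave 0.04 ± 0.09, and MGA, a large MAX partner of the PRC1.6 complex, gave −0.0006 ± 0.06. Adjusted p-values of these 4 members in edgeR were between 0.608 and 0.996.

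MLXIP encodes MondoA, the glucose-sensing partner of MLX, and was the second most abundant member (chr12:122078756-122147344, plus strand, GRCh38). Control libraries ran from 6.97 to 7.44 log2 CPM (median 7.14) and KO libraries from 7.05 to 8.04 (median 7.41). 12 KO libraries were above the highest control, none was below the lowest, and 24 were above the control median. The log2 fold change was 0.33 ± 0.09 (SE; edgeR, adjusted p = 0.00644), with a permutation p of 0.00324 (0.0108 adjusted over the members). KO sets A (7.86) and E (7.89) were high, while the other KO sets lay between 7.24 and 7.45 and the control sets at 7.13 and 7.33. Sets thus held 89.4% of the MLXIP variance among KO libraries. Depth also differed by set, with totals of 1070250 to 2164774 UMIs in the libraries of sets A and E and 1752354 to 4214780 in set B. The part of depth in the set levels of MLXIP, MYC and TXNIP was not tested. Leaving out control set A took the adjusted p to 0.257, and on set sums it was 0.576.

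MLX, the partner that MondoA needs to bind DNA, went the other way without passing. Its control libraries ran from 4.78 to 5.20 log2 CPM (median 4.98) and its KO libraries from 4.39 to 5.24 (median 4.87), with 12 KO libraries below the lowest control and 2 above the highest. The log2 fold change was −0.16 ± 0.08 (SE; edgeR, adjusted p = 0.114; permutation p = 0.0606). It passed in 4 of the other settings, among them limma-voom (adjusted p = 0.0481) and the fit without KO set A (0.0428). Exons of PSMC3IP on the opposite strand cover 345 of the last 500 exonic bases of MLX (chr17:42567072-42573239, plus strand, GRCh38). PSMC3IP held 0 to 12 UMIs a library.

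MYC made up a smaller share of the network in KO. Of all UMIs of the 10 members, MYC took 54.7 to 69.8% in the control libraries (median 61.4%) and 36.4 to 65.3% in the KO libraries (median 52.5%). Per UMI of the 6 repressors together there were 3.34 to 5.66 MYC UMIs in the controls (median 4.07) and 1.56 to 4.48 in KO (median 2.76), and 18 KO libraries were below the lowest control. KO set A held the lowest ratios, 1.56 to 2.07, and KO set B the highest, 3.57 to 4.48. These ratios were built from the counts described above and were given no test.

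Across libraries, MYC and the 2 members that rose most ran opposite to each other. With each group centred on its own mean, MYC had r = −0.82 with MXD3 and −0.71 with MLXIP over 37 libraries, the 18th and 146th lowest of the 8604 other genes that averaged 10 CPM or more, and 0.54 with MXI1. With MAX, the other member that passed, MYC had r = 0.22. The genes most like MYC by this measure were SAMSN1 (0.92), LYAR (0.87), CA8 (0.87), CCDC112 (0.86) and CHD7 (0.86), and those most opposite were LINC00467 (−0.94), RSAD2 (−0.90), CTNNB1 (−0.89), DAZAP2 (−0.88) and HDAC1 (−0.86). These correlations rest mainly on the sets, whose libraries move together, and are given as a description. Within the 3 sets of 6 libraries, none of 135 pair correlations of members passed an exact permutation test after adjustment over all of them. 6 had an unadjusted p below 0.05, with a smallest exact p of 0.00278. The smallest p that 6 libraries allow, 0.00139, would adjust to 0.188 for a single pair, so these sets could hardly pass any pair.

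**Figure D2:**
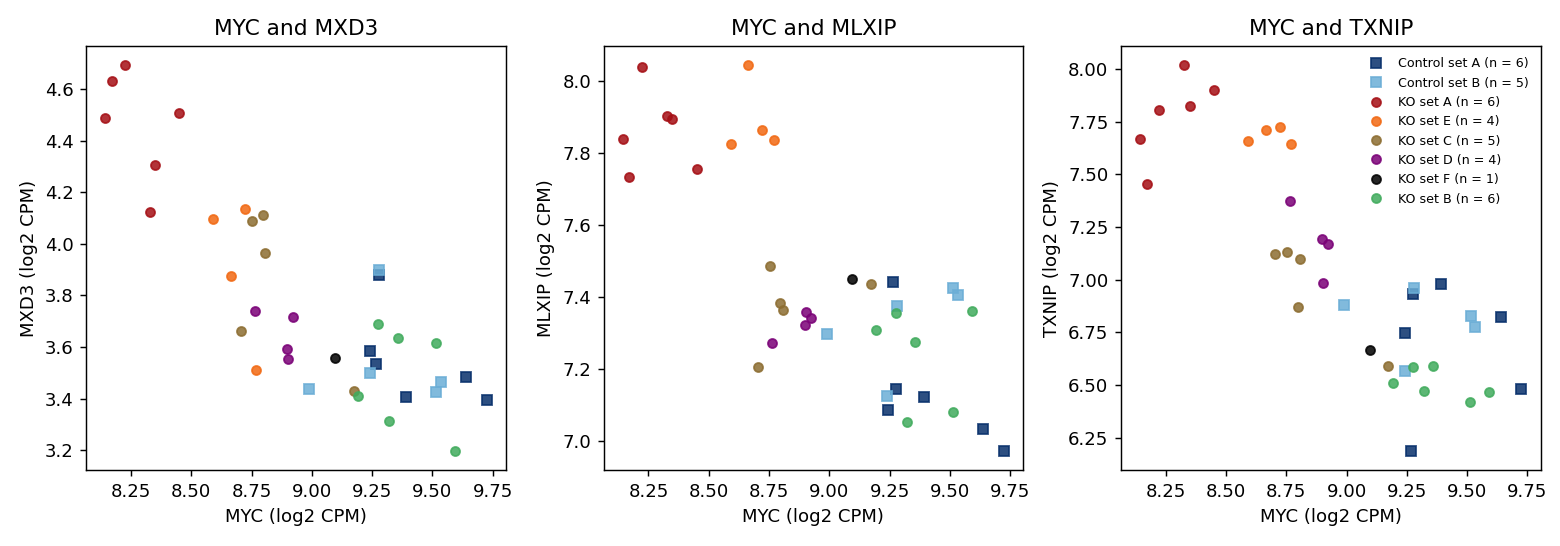
MXD3, MLXIP and TXNIP levels (vertical axes, log2 CPM) against MYC (horizontal axis, log2 CPM) in each of the 37 libraries, coloured by set, with squares for control and circles for KO. KO set A lies at low MYC and high MXD3, MLXIP and TXNIP, KO set B overlaps the control libraries, and set E is high for MLXIP and TXNIP.

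Most of the listed genes that MYC is known to activate were lower in KO, by small folds. Of 30 genes known to be activated by MYC, 28 were measured and tested (EIF4A1 and PPAN were not analysed here), and 16 passed, 15 lower and 1 higher in KO. The share passing was 57.1%, against 33.8% of all genes tested, of which 16.2% were lower. Their median log2 fold change was −0.17, and none passed the 0.5 fold threshold, where 10.2% of all genes passed both thresholds and 3.53% were lower. The targets thus showed no excess at that threshold. Their mean levels ran from 11.1 to 1259 CPM. Small folds pass more easily in abundant genes, and the part of abundance in the share passing was not tested. ODC1, the first enzyme of polyamine synthesis, fell by 0.32 on the log2 scale (edgeR, adjusted p = 1.12e-07) and lay below the lowest control in 24 of 26 KO libraries. TFRC, the transferrin receptor, fell by 0.37 (1.51e-05), POLR1B, a subunit of RNA polymerase I, by 0.32 (0.000318) and NME1, a nucleoside diphosphate kinase, by 0.21 (0.000522). APEX1, a DNA repair endonuclease, was the gene that rose, by 0.12. The median difference of the 28 targets from the control mean was −0.35 in KO set A, −0.18 in E, −0.14 in C, −0.14 in F, −0.03 in D and 0.01 in B. The KO sets with the lowest and the highest MYC were thus also those with the lowest and the highest target median. Between these ends the order differed, as set F (MYC 9.10, 1 library) had a lower target median than set D (MYC 8.87). The part of MYC in the target levels was not tested. Passing targets numbered 4 without control set A and 9 without KO set A, and on set sums neither a target nor any other listed gene passed in edgeR, as no gene did.

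**Figure D3:**
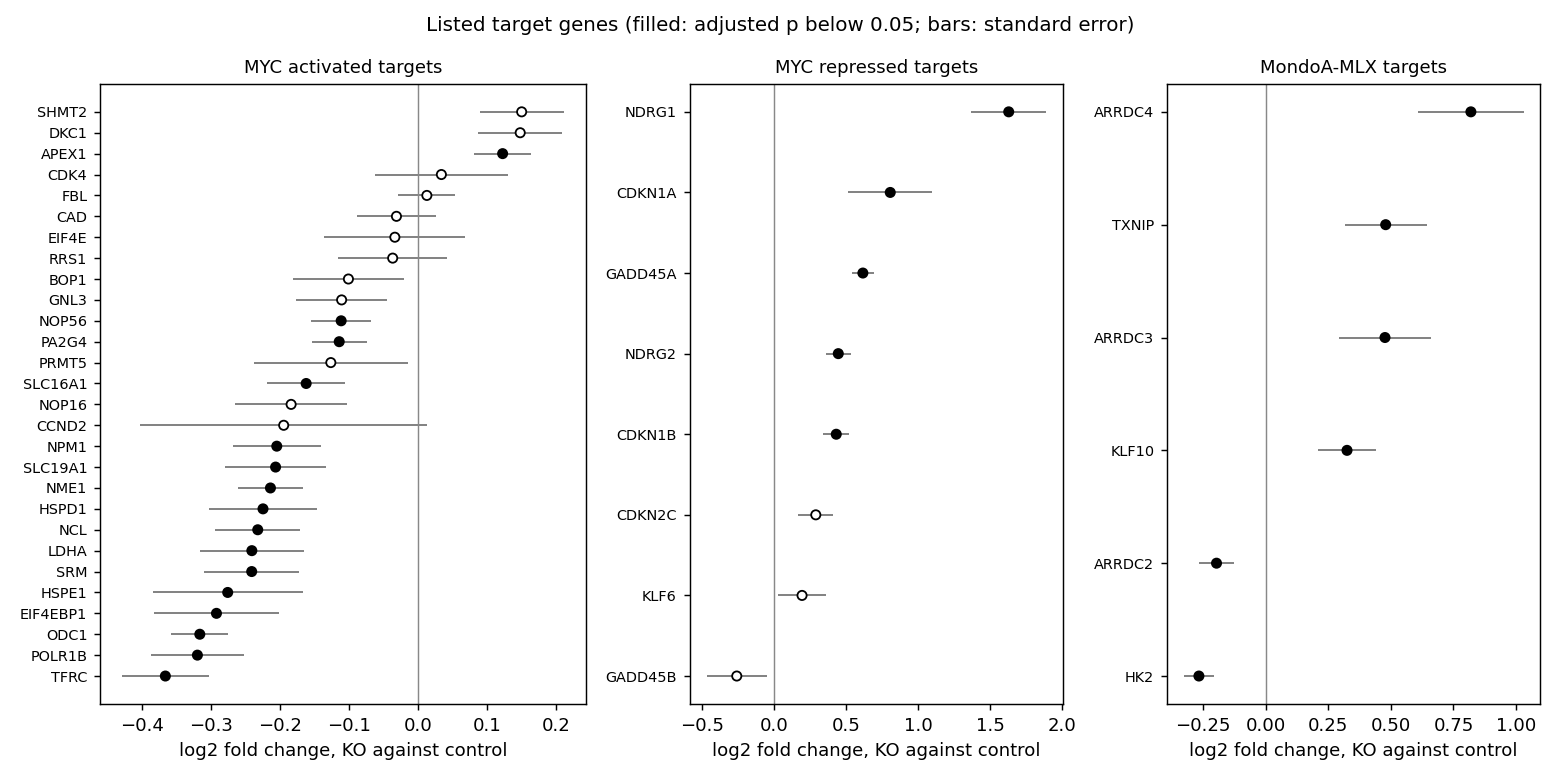
Log2 fold change of KO against control (horizontal axes; scales differ) for each tested gene of 3 target lists, with bars for the standard error and filled points for an adjusted p below 0.05. Of the MYC-activated targets 15 fall and APEX1 rises, of the MYC-repressed targets 5 rise, and of the MondoA-MLX targets 4 rise and HK2 and ARRDC2 fall.

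Listed genes that MYC is known to repress were mostly higher. Of 10 listed, 8 were tested, 5 rose and none fell, against 33.8% of all genes passing and 17.7% higher. The median log2 fold change was 0.44. With a list this short, the count is no result about the genes that MYC represses. NDRG1, named for its repression by N-MYC, rose by 1.63 (edgeR, adjusted p = 4.72e-06) from a low level of 1.87 log2 CPM in the controls. No library held more than 40 UMIs of NDRG1. GADD45A, a growth arrest gene, rose by 0.62 (2.59e-08). NDRG2 rose by 0.45 and CDKN1B, the cyclin kinase inhibitor p27, by 0.43. NDRG1 and the arrest genes also respond to many other signals, and the part of MYC in their change was not tested.

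The targets of MondoA and MLX divided. TXNIP, the arrestin-like protein that limits glucose uptake, was at 6.74 ± 0.24 log2 CPM in the controls and 7.18 ± 0.52 in KO (SD, n = 11 and 26), a log2 fold change of 0.48 (edgeR, adjusted p = 0.0223). ARRDC4, its close relative, rose by 0.82 (0.0025), and KLF10 by 0.32 (0.0251). HK2, a hexokinase, fell by 0.27 (0.000612). Of the 6 listed, all were tested and all passed, 4 higher and 2 lower. Of all genes tested 33.8% passed, 17.7% higher and 16.2% lower. With a list this short, the count is no result about MondoA and MLX. By set, TXNIP was highest in the 2 KO sets with the highest MLXIP, at 7.78 in set A and 7.68 in set E. It was at 6.51 in set B, and ARRDC4 stood at 4.27, 4.83 and 3.01 in the same sets. The other KO sets did not keep this order. MLXIP and TXNIP were at 7.32 and 7.18 in set D, 7.38 and 6.96 in C, and 7.45 and 6.67 in F. The part of MLXIP in these levels was not tested.

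Other family members and cofactors were measured alongside. Of 4 relatives tested, 2 rose and 1 fell, where 33.8% of all genes passed, 17.7% higher and 16.2% lower. MYCN was seen as 1 UMI in all 37 libraries together. MYCL rose by 0.42 (edgeR, adjusted p = 0.016) and MLXIPL, which encodes the MondoA relative ChREBP, by 0.80 (0.008), both from low levels of 3.24 and 1.86 log2 CPM in the controls. USF2, another E-box factor, fell by 0.46, while USF1 gave −0.10 without passing. Counts of the cofactor lists are read against the 33.8% of all genes that passed. Of 10 coactivator genes tested, 2 fell: RUVBL2, an ATPase of chromatin remodelling complexes, by 0.36 and KAT2A, the GCN5 acetyltransferase, by 0.30. Of 11 genes of MYC protein turnover, only PPP2R5A, a phosphatase subunit, passed, falling by 0.22. Of 11 SIN3 complex genes 2 rose and 2 fell, with SUDS3 highest at 0.45. Of 8 PRC1.6 genes tested, RNF2 rose and TFDP1, RYBP and YAF2 fell. With lists this short, none of these counts is a result about its family or complex.

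The promoters of these genes were searched for the canonical E-box, CACGTG, which reads the same on both strands. RefSeq promoters of GRCh38.p14 (250 bases before to 50 after each start) were used, of which 2548 of 35116, or 7.26%, held it. 9 members had a promoter in the table, and 3 of them, MXD4, MNT and MLX, held the motif, in 3 of the 14 promoters of these genes. None of these 3 passed the test between groups. Among activated targets, 12 of 24 genes with a promoter held it, in 12 of their 34 promoters. The share over all promoters compares with the counts of promoters, since a gene can have several. The stretches below show the motif in capitals, in the 3 members and, for comparison, in SRM, ODC1 and LDHA, targets that fell, and APEX1, the target that rose.
MXD4 (chr4:2262300-2262359, minus strand): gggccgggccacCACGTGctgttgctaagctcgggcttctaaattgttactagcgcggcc
MNT (chr17:2401221-2401280, minus strand): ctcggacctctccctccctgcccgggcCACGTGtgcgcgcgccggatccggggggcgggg
MLX (chr17:42567023-42567082, plus strand): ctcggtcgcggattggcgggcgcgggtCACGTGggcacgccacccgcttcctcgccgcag
SRM (chr1:11060185-11060244, minus strand): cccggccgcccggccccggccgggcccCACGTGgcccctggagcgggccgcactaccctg
ODC1 (chr2:10448013-10448072, minus strand): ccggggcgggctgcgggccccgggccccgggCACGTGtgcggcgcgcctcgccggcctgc
LDHA (chr11:18394449-18394508, plus strand): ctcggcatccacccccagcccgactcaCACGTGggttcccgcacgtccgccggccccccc
APEX1 (chr14:20455166-20455225, plus strand): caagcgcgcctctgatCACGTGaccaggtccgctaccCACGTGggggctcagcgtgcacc
APEX1 holds 2 copies in this stretch and the others 1. A match says only that the letters are present. Its absence from the other promoters says nothing of binding.

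The 5 passing members kept their direction in every setting that tested them, though MXD3 was not tested after thinning. MYC, MAX and MLXIP passed in all 12 planned settings, with adjusted p up to 0.0297, and lost their calls on set sums and, each, without 1 of the control sets. MXD3 passed in 7 of 11 planned settings and MXI1 in 8 of 12. MXD3 lost its call when any 1 of 7 libraries was left out (adjusted p up to 0.0597) and MXI1 when either of 2 was (up to 0.0736).

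**Figure D4:**
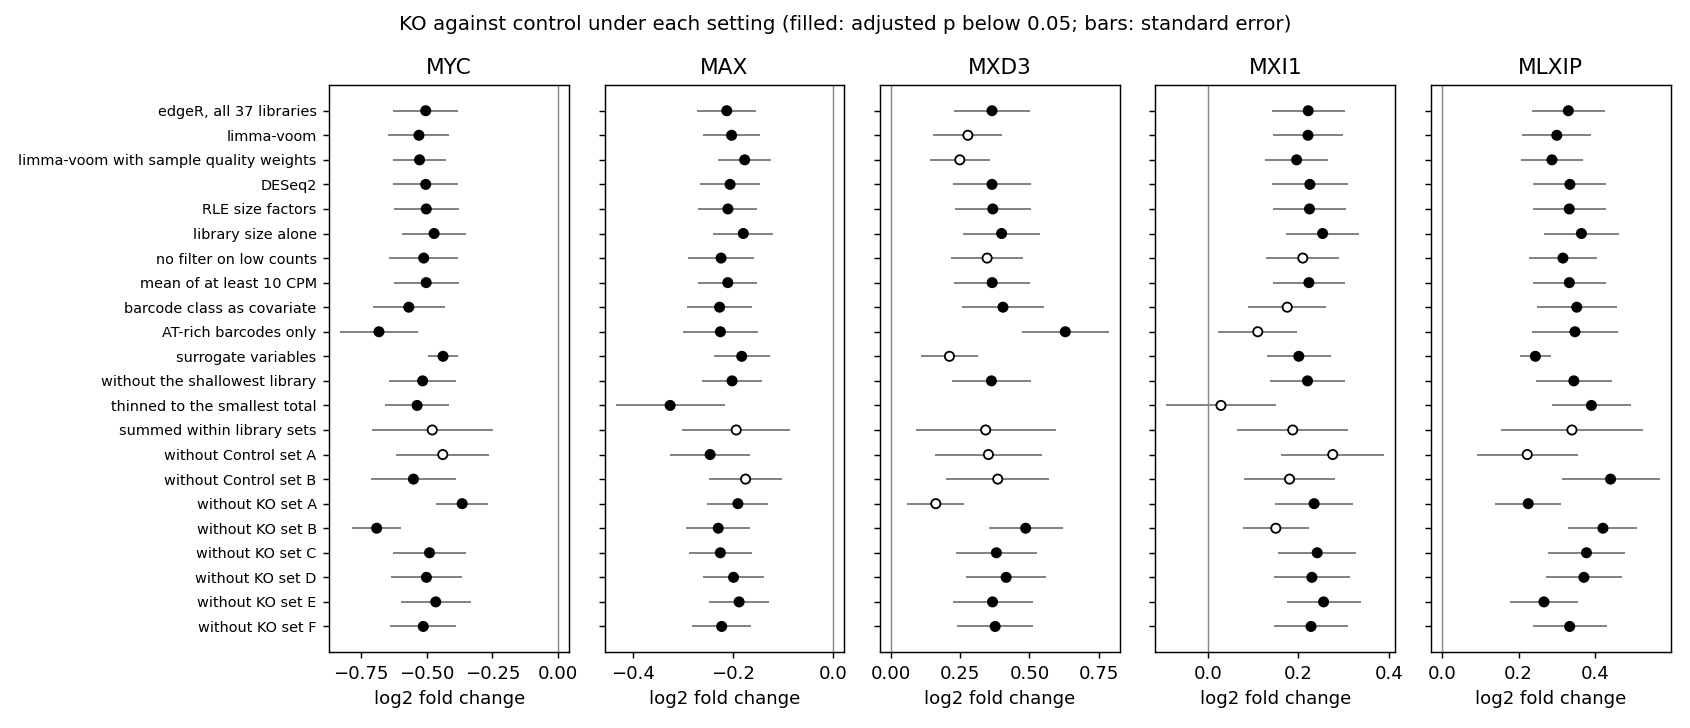
Log2 fold change of KO against control (horizontal axes; scales differ) for the 5 members that passed, under each setting (rows), with bars for the standard error and filled points for an adjusted p below 0.05. All points lie on the same side of 0 for each member, and none is filled when libraries are summed within sets.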

How the data were processed

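Bulk SCRB-seq of K562 was analysed, 26 KO and 11 control libraries, grouped by their labels. The authors mapped reads to hg38 with STAR (2.6.0a in the submitters' processing notes), counted with zUMIs against Ensembl GRCh38.84 and deposited raw UMI counts for 32055 genes. Whether counting used strand is not given in the sources used here. Counts are molecules, but precision is limited for low genes. Columns were matched by barcode. Symbols (for 31323 identifiers), positions and exon overlaps come from GENCODE release 44.

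From these counts, edgeR 4.0.16 in R 4.3.3 gave the tests (default filter on low counts, TMM, robust quasi-likelihood, group as the only term, Benjamini-Hochberg over 10661 genes), called at adjusted p below 0.05, and separately with a log2 fold change beyond 0.5 either way. Levels are log2 CPM with a prior count of 2. Permutation tests of single members were two-sided with 100000 resamples. Sets of libraries were found by average-linkage clustering on correlation within each group, with the number of sets taken at the highest silhouette (scikit-learn 1.9.0). Alternatives used limma 3.58.1, DESeq2 1.42.0, sva 3.50.0, other scalings and filters, barcode class, thinning and left-out libraries. Summing within sets and leaving out sets were added after seeing the data. The fitting step was tested on simulated data. Pooled correlations between members were planned but left out, because libraries fall into separate sets.

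The members and gene lists were chosen with earlier results of these data known. Named were all members, up to 4 genes of each list other than cell type markers by smallest adjusted p, TXNIP, ARRDC4, ZBTB7A, MYCN, MYCL, MLXIPL and the 5 genes most and least like MYC. APEX1, SRM, LDHA, ARRDC2, GP1BA, ITGAM, PTPRC, CD3D, PF4, CD14, CD2 and CD3E fall outside this rule and were named after their values were seen, and RAB24 and PSMC3IP were named for their overlap with members.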

Additional observations from a re-analysis of the deposited data

How the results depend on the processing

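The number of members at an adjusted p below 0.05, 5, became 3 without a filter on low counts and 3 after thinning, which left MXD3 untested, and 3 to 5 when 1 library was left out. It was 0 on sums within sets, 1 without control set A and 2 without control set B. The number past both thresholds, 1, became 0 with library size alone, surrogate variables or set sums. It was also 0 without control set A, KO set A, C or E. With AT-rich barcodes only it was 2 (MYC and MXD3). It was 0 to 1 with 1 library left out, and 0 in 26 of all alternative fits. All genes past both thresholds, 1085, became 1720 without a filter, 672 at a mean of at least 10 CPM, 604 after thinning and 0 on set sums (1044 to 1126 with 1 library left out). Passing activated targets, 16, became 10 with AT-rich barcodes, 0 on set sums, 4 and 10 without control set A or B and 9 and 10 without KO set A or E (13 to 18 with 1 library left out). Where fewer libraries or genes entered, that belongs to the setting, and otherwise the cause was not tested.

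No passing member reversed. Members that did not pass changed sign near 0. MXD1 was −0.0231 with barcode class, −0.13 with AT-rich barcodes and −0.0014 with surrogate variables. MXD4 was −0.0370 without KO set E. MNT was −0.0211 with limma-voom quality weights, −0.0469 without control set B and −0.0032 without KO set A. MGA was 0.0163 with quality weights, 0.0020 with RLE, 0.0314 with library size, 0.0014 at 10 CPM, 0.0334 with AT-rich barcodes, 0.0428, 0.0050, 0.0443, 0.0020 and 0.0033 without control set B or KO sets B, C, E and F, and −0.0272 to 0.0340 with 1 library left out. No paired analysis was possible because the labels give no replicate numbers shared between groups. At 6 to 64 UMIs a library, depth limits MXD3 most.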
